A study of Mus musculus with 2 samples.

Results

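The genes described here encode the cell-cell junctions of the mouse lens: cadherins, protocadherins, the catenins that bind cadherin tails, desmosomal proteins, claudins, tight junction scaffolds and the Pard polarity proteins. They were taken by a rule on gene symbols that used no measured value, but the families were chosen with earlier results of these data known. Every probe whose annotated symbol belongs to 1 of these families was taken, which gave 254 of 45281 probes and 143 of 19057 named genes. The study measured total RNA from 2 wild-type tissues of the mouse embryo at stage E12.5, the lens epithelium and the lens fibers, with 1 biotin-labelled Illumina array for each. The sources used here do not give the strain, the number of embryos pooled or the way the tissues were separated. With 1 array per tissue there are no replicates, so no difference below has a test, a p-value or a replicate error, and each describes these 2 arrays only.

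Cadherins hold neighbouring cells together by binding like molecules across the gap between them, and catenins link their tails to the actin cytoskeleton. Desmosomes use related cadherins, the desmogleins and desmocollins, anchored to intermediate filaments by plakins and plakophilins. Claudins and occludin form the tight junction strands that seal the space between epithelial cells, and ZO proteins tie those strands to actin. The lens is a vesicle of epithelium whose rear cells elongate into fibers, and E-cadherin (Cdh1) is known as the cadherin of its epithelium while N-cadherin (Cdh2) is known in both of its cell types.

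Intensities below are quantile normalized, and a gene is represented by its brightest probe. The floor of an array is the 95th percentile of 1578 probes of genes assumed not to be expressed in lens, such as odorant receptors, and stood at 44.5 in epithelium and 32 in fibers. Genes that exceed both floors have a ratio, genes that exceed only 1 have a bound against the other array's floor ("at least N-fold"), and log2 ratios are fibers over epithelium. Different probes of the same gene had log2 ratios with an SD of 0.74 (472 genes with several probes above the floor on both arrays). The 32 silent-gene probes above the floor on both arrays had log2 ratios with an SD of 0.84 and a largest absolute value of 2.36. The tissue labels were checked against lens markers: all 7 fiber markers with a named probe, Mip among them (3206.5 in epithelium, 19878 in fibers), reached 2-fold in favour of fibers. Of 6 epithelium markers, 4 reached 2-fold in favour of epithelium, Gja1 among them (399 and 15), while Cryab had a bound of at least 1.28-fold in favour of fibers and Foxe3 was below the floor on both arrays. Of 14 housekeeping genes with a named probe, 8 were above the floor on both arrays, with a median log2 ratio of 1.25 and a range from -0.71 to 3.18. Of these 8, 6 were higher in fibers and 2, Vcp and Tbp, in epithelium. The other 6 were above the floor in fibers only.

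Most junction genes gave little signal in either tissue. Of 143 genes, 31 (21.7%) exceeded the floor in at least 1 tissue, against 33.9% of all named genes, and 112 were below it on both by their brightest probe. Of these 112, only Pcdh1 had another probe above a floor, at 45.5 in epithelium and -2 in fibers, a bound under 2-fold. Of the 31, 17 exceeded it in both tissues, 10 in fibers alone and 4 in epithelium alone. Among all 6451 named genes above a floor, these counts were 2986, 2307 and 1158. Of the 10, 6 have no direction, because their fibers readings did not exceed the higher epithelium floor. In all, 5 reached 2-fold in favour of fibers (16.1% of the 31, against 15.6% of all genes above the floor) and 4 in favour of epithelium (12.9%, against 19.0%). The share higher in fibers was near that of all genes. Among the 17 on both arrays the median log2 ratio was -0.29, against -0.19 for all 2986 such genes. Scaled to housekeeping genes, which subtracts 1.25 from every log2 ratio measured on both arrays, none of the 31 reached 2-fold in favour of fibers (against 2.48% of all genes above the floor) and 18 did in favour of epithelium (58.1%, against 48.8%). At a 1.5-fold threshold, 6 of the 31 were higher in fibers (19.4%, against 24.6% of all genes above the floor) and 7 in epithelium (22.6%, against 31.1%). In bulk tissue, fewer cells of a type and less RNA per cell cannot be told apart.

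**Figure D1:**
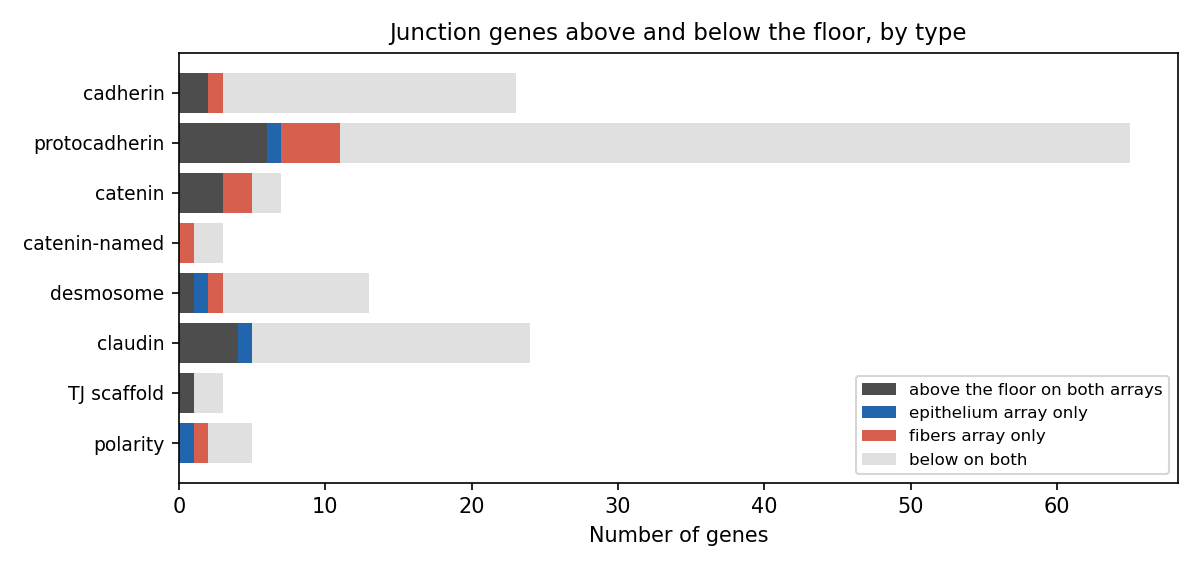
Number of junction genes of each type (horizontal axis) that were above the floor on both arrays, on 1 array or on neither. The light bars dominate most types. By their brightest probe, 54 of 65 protocadherins, 20 of 23 cadherins and 19 of 24 claudins were below the floor on both arrays. Above it on at least 1 were 5 of 7 catenins, against 33.9% of all named genes.

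**Figure D2:**
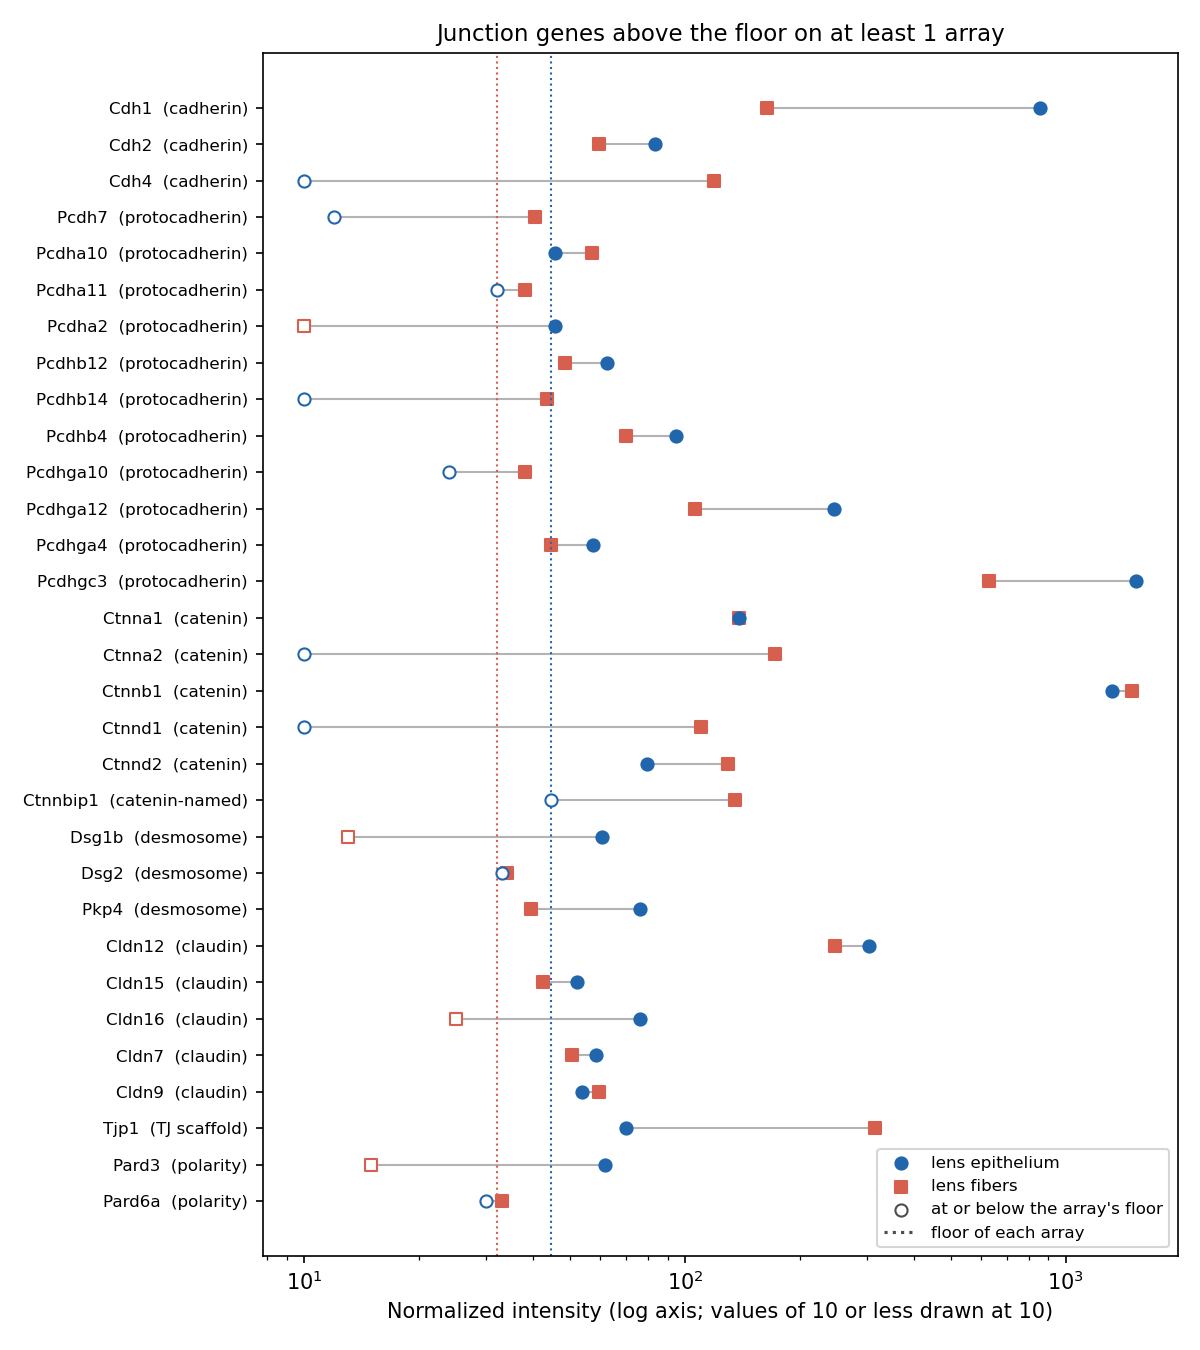
Normalized intensity (log axis) of the 31 junction genes above the floor on at least 1 array, with circles for lens epithelium, squares for lens fibers, open symbols at or below the floor and dotted lines at the floors of 44.5 (epithelium) and 32 (fibers). Cdh1 and Pcdhgc3 lie to the right in epithelium, Tjp1 lies to the right in fibers, and the circle and square of Ctnna1 coincide at 138.5.

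Cdh1 had the lowest log2 ratio of the 143 genes. It read 854.5 in epithelium and 164 in fibers, 5.21-fold higher in epithelium (log2 ratio -2.38). The fibers reading was above the fibers floor of 32. The 6 lens epithelium marker genes summed to 1407.5 in epithelium and 318 in fibers, where Pdgfra (155), Pax6 (69) and Cryab (57) exceeded the floor and Gja1 (15), Sulf1 (22) and Foxe3 (0) were below it. Their part in the fibers reading of Cdh1 was not tested. Of the 2986 genes measured on both arrays, 66 (2.21%) had a log2 ratio as low as that of Cdh1 or lower. The size of the Cdh1 log2 ratio was close to the largest absolute value among the silent-gene probes, 2.36, from probes that reached at most 454 in epithelium and 267.5 in fibers. A second Cdh1 probe, annotated to a cDNA clone record, was below the floor on both arrays at 14 and -1, so the ratio rests on 1 probe. It was negative under each alternative that gave a value.

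Cdh2 read 83.5 in epithelium and 59.5 in fibers, 1.40-fold higher in epithelium (log2 ratio -0.49). Both readings were near the floors, the log2 ratio was smaller than the SD of 0.74 between probes of a gene, and 36.1% of genes on both arrays had a log2 ratio as low or lower. A second Cdh2 probe was below the floor on both arrays, at 9 and 13. The 2 cadherins thus had negative log2 ratios of unequal size, and no cadherin on both arrays was higher in fibers. With the 99th percentile of silent probes as the floor (110.5 and 80.7), Cdh2 was below it on both arrays.

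Cdh4, R-cadherin, gave opposite readings from its 2 probes. The brighter probe read 10 in epithelium and 119.5 in fibers, a bound of at least 2.69-fold higher in fibers. The other read 102 in epithelium and 16 in fibers, a bound in favour of epithelium (log2 ratio -1.67). Cdh4 therefore has no settled direction here, although the brightest-probe rule counts it among the 5 genes higher in fibers.

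The other 20 cadherins were below the floor on both arrays. Cdh5, the VE-cadherin of blood vessels, read 4 and 4, and Cdh11, a cadherin of mesenchyme, read -1 and 0. Cdh3, P-cadherin, read 6 in epithelium and -2 in fibers. Cdh12 came nearest the floors, at 24 and 32, the latter equal to the fibers floor.

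**Figure D3:**
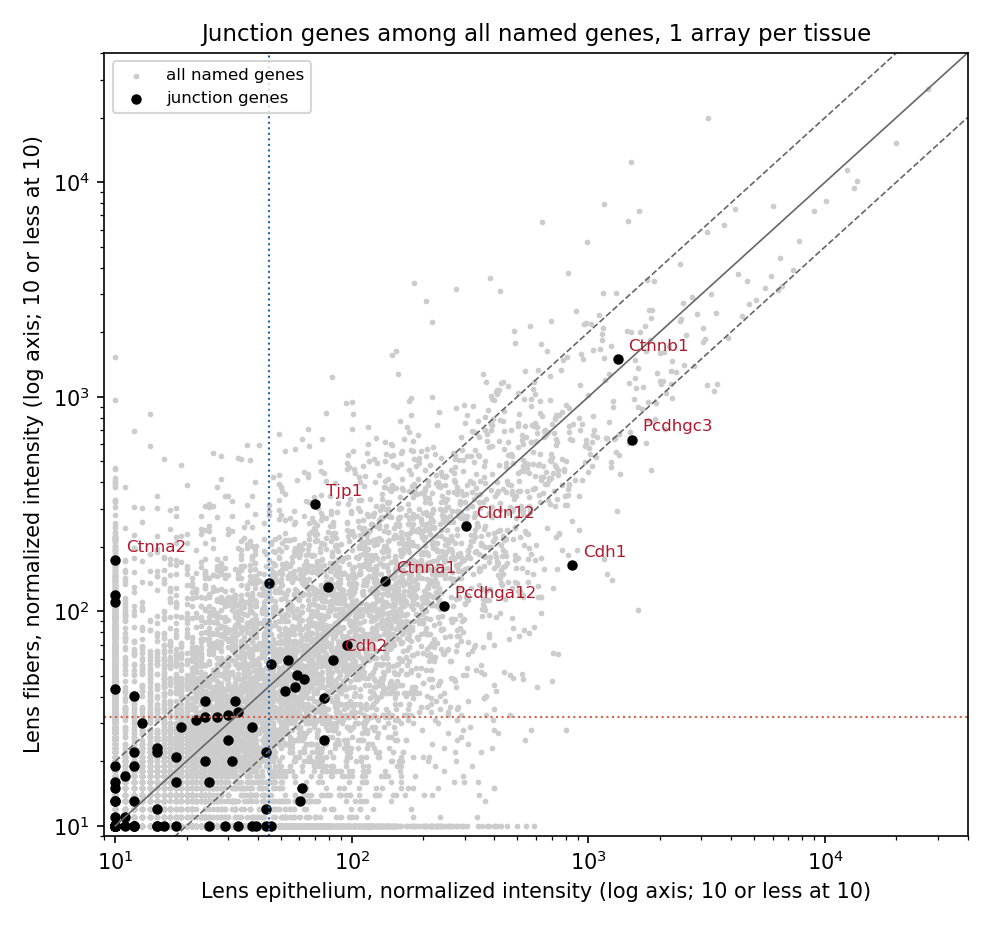
Normalized intensity of every named gene (grey) and of the 143 junction genes (black) in lens epithelium (horizontal) and lens fibers (vertical), both on log axes, with the diagonal, 2-fold lines (dashed) and the floors (dotted). Cdh1 lies below the lower dashed line and Tjp1 above the upper, while Ctnnb1, Ctnna1 and Cldn12 lie between the dashed lines.

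Catenins were the type most often above the floor, 5 of 7 cadherin-bound catenins (71.4%, against 33.9% of all named genes). Of these 5, Ctnna2 and Ctnnd1 passed on 1 probe of 4, in fibers only. Ctnnb1, beta-catenin, which binds the cadherin tail and also acts in Wnt signalling, read 1327.5 in epithelium and 1495 in fibers (log2 ratio 0.17). Its 2 dimmer measured probes read 1112.5 and 1482 (0.41), and 477.5 and 736 (0.62). All 3 probes were higher in fibers by under 2-fold, a direction that turned when arrays were scaled to housekeeping genes (-1.08 for the brightest). Ctnna1, the alpha-catenin that connects beta-catenin to actin, read 138.5 on both arrays, a log2 ratio of 0.00 (-1.25 when scaled to housekeeping genes).

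Set beside Cdh1, the catenin partners Ctnnb1 and Ctnna1 did not show a 2-fold difference between the quantile normalized arrays. Scaled to housekeeping genes, both reached 2-fold in favour of epithelium, the direction of Cdh1. Ctnnd2, delta-catenin, a relative of p120-catenin, read 79.5 in epithelium and 130 in fibers (1.64-fold, log2 ratio 0.71, but -0.54 when scaled to housekeeping genes). A second Ctnnd2 probe read 56 and 110.5 (0.98), another had a bound of 0.81 and the last was below the floor on both arrays. Ctnnd2 was 1 of only 4 junction genes above the floor with another probe above it, the others being Ctnnb1, Cdh4 and Pkp4.

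Further catenins were above the floor in fibers only, each on 1 probe of 4. Ctnna2, the alpha-catenin known from neurons, read -12 in epithelium and 172.5 in fibers, at least 3.88-fold higher in fibers. Its other probes were below the floor on both arrays, with readings from -6 to 36. Ctnnd1, p120-catenin, which keeps cadherins at the membrane, read -5 and 110.5, at least 2.48-fold higher in fibers, with its other 3 probes below the floor on both arrays. With the mean of all probes, Ctnna2 had a bound of only 0.20 on the log2 scale and Ctnnd1 was below the floor on both arrays. Jup, plakoglobin, the catenin of desmosomes, read 3 and -8, and Ctnna3 read -3 and 2, both below the floor.

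Of 3 genes that carry a catenin name without being part of the cadherin complex, Ctnnbip1 was above the floor. It encodes an inhibitor of the binding of beta-catenin to TCF factors, and it read 44.5 in epithelium, equal to the floor, and 135 in fibers, at least 3.03-fold higher in fibers. Ctnnal1 (12 and 19) and Ctnnbl1 (10 and 13) were below the floor on both arrays.

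**Figure D4:**
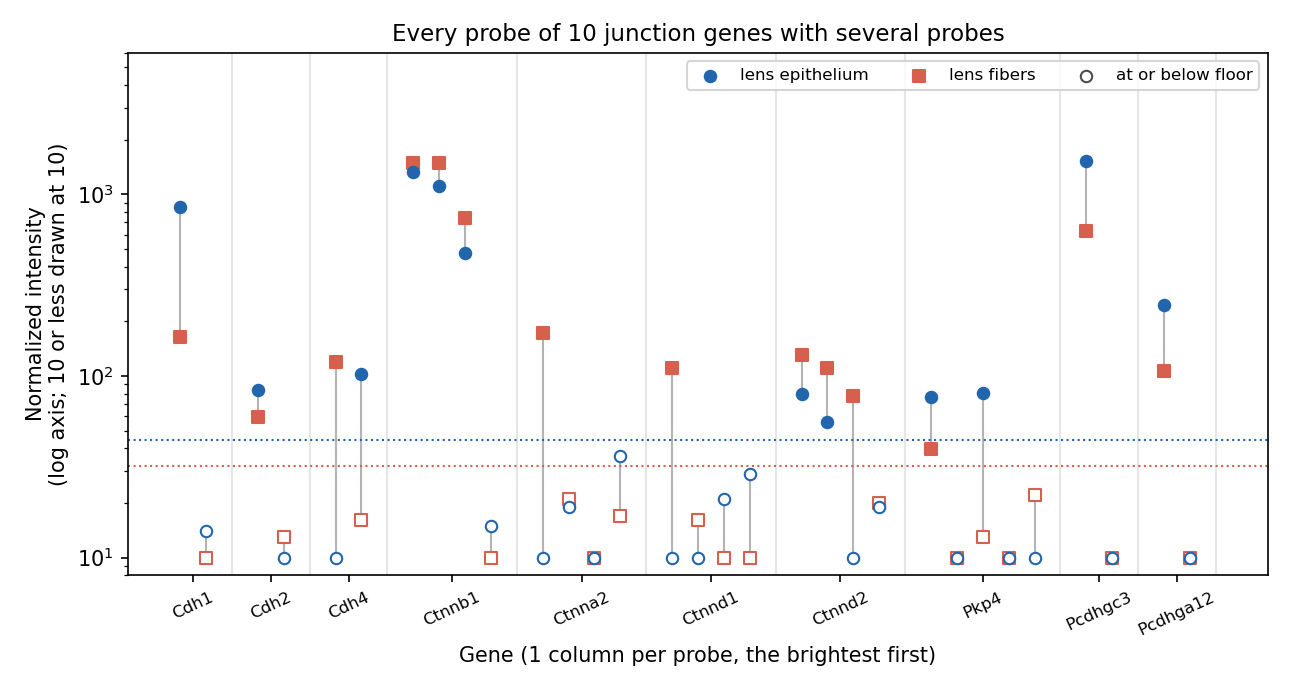
Normalized intensity (log axis, 10 or less drawn at 10) of every probe of 10 junction genes with several probes, 1 column per probe, with circles for lens epithelium, squares for lens fibers and open symbols at or below the floor (dotted lines). The 3 measured Ctnnb1 probes lie close together, the 2 Cdh4 probes point in opposite directions, and Cdh1, Cdh2, Ctnna2, Ctnnd1, Pcdhgc3 and Pcdhga12 each rest on 1 probe.

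Among the protocadherins, 11 of 65 exceeded the floor in at least 1 tissue (16.9%, against 33.9% of all named genes). Of these 11, 2 reached 2-fold in favour of epithelium (18.2%, against 19.0% of all genes above the floor), a share near that of all genes. None did in favour of fibers (against 15.6%). Pcdhgc3, of the gamma cluster, read 1529.5 in epithelium and 629.75 in fibers (2.43-fold, log2 ratio -1.28). Pcdhga12, of the same cluster, read 246 and 106 (2.32-fold, log2 ratio -1.21). Among genes measured on both arrays, 12.3% had a log2 ratio as low as that of Pcdhgc3 or lower and 13.2% as low as that of Pcdhga12.

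The gamma protocadherins are spliced from separate first exons to shared last exons, so a probe in the shared part reads every member of the cluster. Both high readings came from probes annotated to cDNA clone records, and probe positions were not used here. The other Pcdhgc3 probe read 2 and 0, and the other Pcdhga12 probe read -9 and -3, both below the floor on both arrays. The gene names of these signals within the cluster are therefore uncertain.

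The remaining clustered protocadherins were dim. Pcdhb4 read 95 and 70, Pcdhb12 read 62.5 and 48.5, and Pcdhga4 read 57.5 and 44.5, each with a log2 ratio between -0.37 and -0.44. Pcdha10 read 45.5 and 57 (0.33, but -0.92 when scaled to housekeeping genes), and Pcdha2 was above the floor in epithelium only, at 45.5, with a bound of at least 1.42-fold. Pcdha11, Pcdhb14, Pcdhga10 and the non-clustered Pcdh7 were above the floor in fibers only, between 38 and 43.5, below the epithelium floor of 44.5, and have no direction. By their brightest probe, 44 of 54 clustered protocadherins were below the floor on both arrays, as were 10 of the 11 non-clustered, Pcdh1 with its other probe above the epithelium floor among them.

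Desmosomal genes were at or near background in both tissues. Of 13 desmogleins, desmocollins and plakophilins, 3 exceeded the floor in at least 1 tissue (23.1%, against 33.9% of all named genes). By their brightest probe none of these 3 differed by 2-fold, too few genes to compare with the shares of all genes. Desmoplakin (Dsp) was not among the 143 genes. Pkp4, a plakophilin relative also found at adherens junctions, read 76.25 in epithelium and 39.5 in fibers (1.93-fold higher in epithelium, log2 ratio -0.95). A second Pkp4 probe of like brightness read 80.5 and 13, a bound of -1.33 (at least 2.52-fold), in the same direction. Dsg1b, a desmoglein known from skin, read 60.5 and 13, at least 1.89-fold higher in epithelium on 1 probe of 3. Dsg2, the desmoglein of simple epithelia, read 33 and 34 and has no direction. The desmocollins Dsc1, Dsc2 and Dsc3 read between -4 and 9 on both arrays, and Pkp1 (38 and 29) and Pkp2 (27 and 32) stayed at or just under the floors.

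Of 5 claudins above the floor, 1 reached 2-fold, in favour of epithelium (20%, against 19.0% of all genes above the floor). All 5 did when scaled to housekeeping genes, as did 48.8% of all genes above the floor, a scaling that subtracts 1.25 by construction. Cldn12 read 304 in epithelium and 248.5 in fibers (log2 ratio -0.29). It was the claudin that stood clear of the floor on both arrays. Cldn15 (52 and 42.5), Cldn7 (58.5 and 50.5) and Cldn9 (53.5 and 59.5) had log2 ratios of -0.29, -0.21 and 0.15, the last at -1.10 when scaled to housekeeping genes. Cldn16, known from the kidney tubule, read 76.25 in epithelium and 25 in fibers, at least 2.38-fold higher in epithelium, but its bound was under 2-fold with loess normalization and with a common floor (44.5 on both arrays). Of the 19 claudins below the floor on both arrays, Cldn2 (43.5 and 22) and Cldn6 (38 and -1) came nearest in epithelium, and the vessel claudin Cldn5 read 18 and -1.

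Tjp1, the ZO-1 scaffold that binds claudin and catenin complexes to actin, had the highest log2 ratio of the 143 genes. Its intensity was 70 in epithelium against 316 in fibers, 4.51-fold higher in fibers (log2 ratio 2.17), on its only probe. Among the 2986 genes with a ratio, 75 (2.51%) had a log2 ratio as high or higher. Its log2 ratio was smaller than the largest absolute value among the silent-gene probes, 2.36. With the floor at the 99th percentile, its epithelium reading was below the floor, which left a bound of 1.52 on the log2 scale. Scaled to housekeeping genes, the log2 ratio was 0.93, below 2-fold. The strand protein Ocln (4 and 7) and the ZO-3 gene Tjp3 (0 and 6) were below the floor on both arrays.

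Polarity genes were dim. Pard3, the scaffold that directs junctions to the apical side, read 61.5 in epithelium and 15 in fibers, at least 1.92-fold higher in epithelium on 1 probe of 4. Pard6a, its partner, read 30 and 33 and has no direction. Pard3b, Pard6b and Pard6g were below the floor on both arrays.

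The 250 bases before an annotated start of Tjp1 and of Ctnna2 are shown, a choice made after the values were seen, because these genes had the highest log2 ratio and the largest bound in favour of fibers among the 143. Capitals mark the E-box motifs CACCTG and CAGGTG, each the reverse complement of the other, which Snail and Zeb factors are known to bind in the Cdh1 promoter. Both are from RefSeq on GRCm38.p6, minus strand, Tjp1 at chr7:65371245-65371494 and Ctnna2 at chr6:77979668-77979917, printed 5′ to 3′ as transcribed.
Tjp1: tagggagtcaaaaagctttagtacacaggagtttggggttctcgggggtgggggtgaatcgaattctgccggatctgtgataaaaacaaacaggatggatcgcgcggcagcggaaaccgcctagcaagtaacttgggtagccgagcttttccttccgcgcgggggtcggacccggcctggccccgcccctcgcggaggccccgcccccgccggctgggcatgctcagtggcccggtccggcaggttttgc
Ctnna2: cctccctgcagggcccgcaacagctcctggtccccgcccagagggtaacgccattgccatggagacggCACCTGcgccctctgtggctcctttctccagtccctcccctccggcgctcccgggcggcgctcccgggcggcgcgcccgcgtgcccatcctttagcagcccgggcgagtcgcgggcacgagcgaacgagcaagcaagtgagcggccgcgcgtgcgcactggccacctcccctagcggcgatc
The Ctnna2 window held 1 such motif, beginning 182 bases before the start, and the Tjp1 window held none. The windows of Ctnnd1, Ctnnbip1 and Cldn16 held none either, and 17.2% of all 32851 windows of this length held at least 1. A match in letters does not show that a factor binds there.

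Of 9 transcription factors known to repress or activate Cdh1, 4 exceeded the floor in at least 1 tissue (44.4%, against 33.9% of all named genes). Snai1 (11 and 8), Snai2 (-4 and -5) and Twist1 (2 and 9), all repressors, and Grhl2 (-7 and -2), an activator, were below it on both arrays. Zeb1, a repressor, had a bound of at least 2.43-fold higher in fibers from its brightest probe (33 and 108), but its second probe read 75 and 18, a bound in the opposite direction (-1.23). Zeb2, a related repressor, read 146 and 78 (-0.90), with other probes at 53.5 and 81.5 (0.61) and at 58.5 and 61.5 (0.07). Neither Zeb gene has a settled direction. Twist2 read 67 and 17, at least 2.09-fold higher in epithelium. Ovol1 (30 and 27) was below the floor on both arrays, and Ovol2 (30 and 38) was above it in fibers only and has no direction.

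A further list of 51 genes held other junction genes, filament genes and these 9 transcription factors. Of the 51, 50 had a named probe and 24 exceeded the floor in at least 1 tissue (48%, against 33.9% of all named genes). Among these 24, 4 reached 2-fold in favour of fibers and 4 in favour of epithelium (16.7% each, against 15.6% and 19.0% of all genes above the floor), and the median log2 ratio of the 12 on both arrays was 0.43, against -0.19 for all genes. These counts include Twist2 and Zeb1, the latter without a settled direction, and the median includes Zeb2. They therefore do not describe junction genes alone.

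Nectins are adhesion molecules that act beside cadherins, and afadin (Afdn) links them to actin. Nectin3 was 3.40-fold higher in fibers (333, against 98 in epithelium), and its other 2 measured probes had log2 ratios of 1.12 and a bound of 1.17, also higher in fibers. Afdn read 25 and 118.5, at least 2.66-fold higher in fibers, with a second probe in the same direction (0.82). Nectin1 and Nectin2 were above the floor in epithelium only, at 54.5 and 49. Actn1, the actin cross-linker alpha-actinin 1, read 58.5 and 125 (2.14-fold higher in fibers), but its log2 ratio was -0.15 when scaled to housekeeping genes, while Nectin3 was at 0.52 and Afdn at 0.16.

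The junction scaffold Magi1 went the other way, 192 in epithelium and 34 in fibers (5.65-fold), on 1 of 6 probes, with 2 further probes above the fibers floor and without direction. Tjap1, a tight junction-associated protein, had a bound of at least 2.25-fold and Crb1, an apical polarity protein, at least 2.06-fold, both in favour of epithelium. For Tjap1, Crb1 and Twist2 the bound was under 2-fold with a common floor. Cgnl1, paracingulin, read 210 and 131 (-0.68), and Jam3, a junctional adhesion molecule, read 122 and 177 (0.54). Vinculin (Vcl), F11r, Cgn and Marveld2 were below the floor on both arrays. Among the intermediate filament genes, Vim read 73 and 89, Krt5 read 49 and 65, and Krt8, Krt18 and Krt14 were below the floor on both arrays.

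Markers of other tissues were set beside the genes higher in epithelium. Summed over 7 periocular mesenchyme genes the signal was 259.5 in epithelium and 55 in fibers, mostly from Tfap2b (208.5 and 36), with the other 6 below the floor on both arrays. Over 4 retina genes it was 1258 and 142.5, from Sfrp2 (1256 and 139.5), with Rax, Six6 and Lhx2 below the floor. Over 5 pigment cell genes it was 140.5 and 37, with only Pmel above the floor in epithelium. These sums were higher in epithelium, like Cdh1 and Pcdhgc3, and their part in those differences was not tested. The surface ectoderm list summed to 134 and 150, with Epcam, Esrp1, Trp63 and Krt8 among 7 of 8 genes below the floor on both arrays. The endothelium list summed to 100 and 134.5, with 6 of 7 genes below the floor on both arrays by their brightest probe, Pecam1 and Kdr among them.

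**Figure D5:**
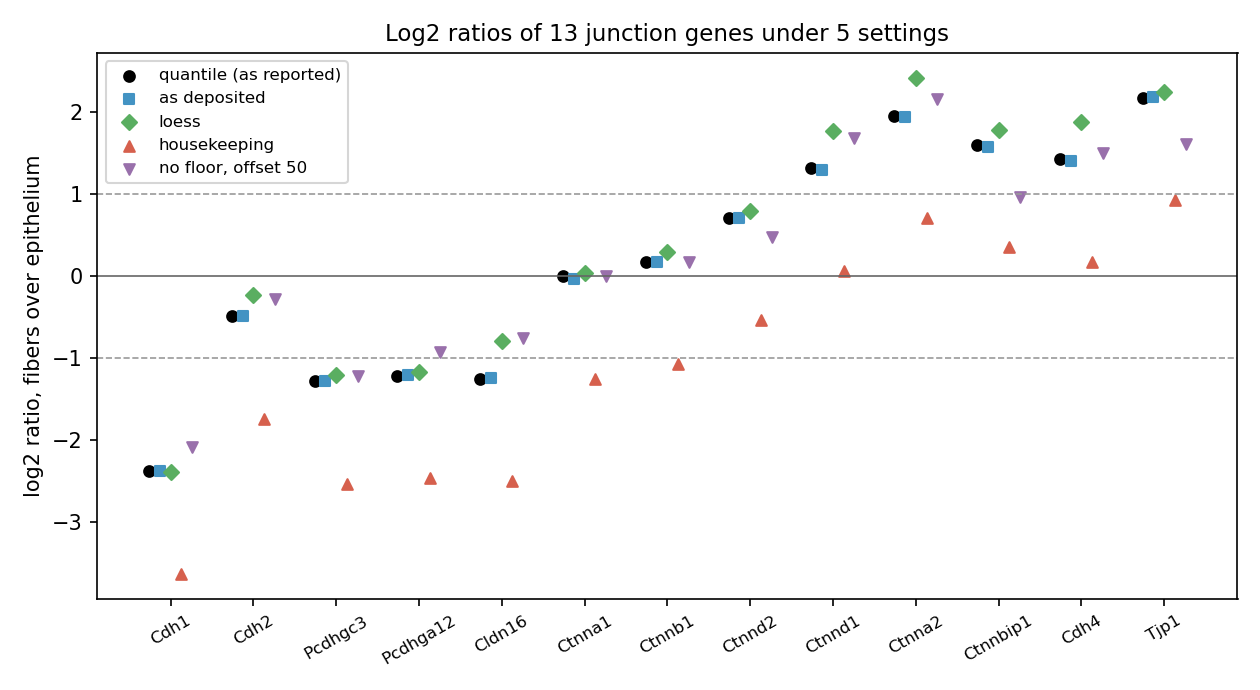
Log2 ratios, fibers over epithelium (vertical axis), of 13 junction genes under quantile normalization, the deposited values, loess, scaling to housekeeping genes, and no floor with an offset of 50. Dashed lines mark 2-fold. Cdh1 stays below the lower line under all 5, Tjp1 drops under the upper line only when scaled to housekeeping genes (0.93), and Ctnnb1 and Ctnnd2 change sign under that scaling alone.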

How the data were processed

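RNA of lens epithelium and lens fibers (1 sample each) was measured on 1-colour Illumina arrays. The authors deposited 1 intensity per probe on a linear scale, in whole numbers from -16 upward on both arrays; 38.0% (epithelium) and 38.7% (fibers) were at or below 0, so background had been subtracted. The sources used here do not say how background, scaling and rounding were handled. Values were quantile normalized with Python 3.11.15 (numpy 2.4.6, pandas 2.3.3), which hides any difference in total RNA. Of 45281 probes, 34885 had 1 symbol in the platform annotation, 18 several and 10378 none. Only probes with 1 symbol were used, and all 143 junction genes matched the reference gene table. The brightest probe represents a gene, which favours probes that also bind other transcripts.

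A gene was counted as different at 2-fold or more, as a ratio or a bound. A gene above the floor in fibers only has no direction where its fibers reading did not exceed the epithelium floor. The steps were also run on simulated data, in which bright genes were given changes larger than 2-fold, with noise smaller than the spread between probes here. That setting is cleaner than these arrays, so it does not show how well dim genes are called. Every junction gene above the floor could be named; genes at 2-fold or more, Cdh1, Cdh2 and the catenins got both values, and other junction genes were named at 2-fold or more. Listed genes given below that fold were chosen after their values were seen. The members and lists were chosen with earlier results of these data known. In all, 9 alternatives were tried. The number of arrays limits the precision.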

Additional observations from a re-analysis of the deposited data

How the results depend on the processing

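Both the counts and the genes called changed with the processing. Cdh1 reached 2-fold in favour of epithelium under each alternative that gave it a value. Tjp1 did so in favour of fibers under each that gave it a value except scaling to housekeeping genes. With the second brightest probe, none of the genes called kept its call. The 5 junction genes higher in fibers became 0 when scaled to housekeeping genes, 1 (Tjp1) with the floor at the 99th percentile, 0 with the second brightest probe (5 genes measured, Pcdh1 among them, which was below the floor by its brightest probe) and 2 with the mean of all probes. The 4 higher in epithelium became 18 when scaled to housekeeping genes, 2 with no floor and an offset of 50, 2 with the second brightest probe and 7 at a 1.5-fold threshold. Scaled to housekeeping genes, the log2 ratio of Cdh1 was -3.63 and that of Cdh2 was -1.74. That scaling subtracts the housekeeping median of 1.25 by construction. Under the other alternatives that gave a value, Cdh1 lay between -2.41 and -2.08 and Cdh2 between -0.49 and -0.23. The second brightest probe gave no value for either, and the floor at the 99th percentile none for Cdh2. Cdh4 reversed with its second probe (-1.67), and the cause was not tested.

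Of 145 values of 23 other junction genes, 116 moved by less than the SD between probes of a gene (0.74). Another 28 moved by more without reversing a 2-fold difference, 23 of them under housekeeping scaling, and 1 reversed. Under that scaling the 5 genes called higher in fibers fell below 2-fold. Ctnnb1 (-1.08) and Cldn9 (-1.10) changed sign and reached 2-fold in favour of epithelium. Over all genes, fibers held 45.1% of 2-fold differences, 62.2% with loess and 4.84% scaled to housekeeping genes. No paired analysis was possible because each tissue has 1 array. Signal over background limits most members, 112 of 143 being below the floor on both arrays by their brightest probe, though Pcdh1 had another probe above it.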
